A study of Rattus norvegicus with 28 samples.

Results

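Endothelial RNA of mismatched rat heart grafts taken on day 4 was compared with that of grafts taken on day 3. The members are the 3 arrays titled as day 4 allografts and the 3 titled as day 3 allografts, 6 of the 28 arrays in the series, and the comparison ran across 14217 genes. An allograft here was a heart of a DA (Dark Agouti) rat placed in the neck of a Lewis recipient, so donor and recipient differed in strain. Endothelial arrays of normal DA hearts, of allografts of day 2 and of isografts of days 3 and 4 (Lewis hearts placed in Lewis recipients) served as reference, with 3 arrays each. All rats were male, and the sources used here give no age. Hearts were minced, cells carrying the leukocyte protein CD45 were removed with an antibody, and cells carrying the endothelial protein CD31 were then collected on magnetic beads. The graft vessels belong to the donor, while leukocytes that enter the graft belong to the recipient. Leukocytes collected from allografts were measured on 4 more arrays.

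In acute rejection, T cells of the recipient recognise donor MHC molecules and release interferon-gamma, and endothelial cells are the first donor cells they meet. Interferon-gamma acts through its receptor and the Jak kinases, and many of its target genes carry a palindromic DNA element called the interferon-gamma-activated site (GAS). The targets include transcription factors such as Irf1 and Irf8, MHC molecules, the peptide transporter and chemokines. Monocytes enter the graft in the same days and become macrophages, and capillary endothelium of the normal heart carries a set of genes for fatty acid uptake. Each value below is a log2 signal, on which a difference of 1 is a change of 2-fold. A difference is the mean of the 3 day 4 arrays minus the mean of the 3 day 3 arrays, with its standard error (SE) from limma. The p-values were adjusted by Benjamini-Hochberg over the 14217 genes. Each SE rests on 1 spread per gene shared by all 24 endothelial arrays, so it can be smaller than the 6 compared arrays alone would give. Array values are given in the order of replicates 1, 2 and 3.

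The preparations carried endothelial markers at high signals on both days. The 18 measured endothelial markers (of 20 listed) had a mean level of 11.81 to 12.06 on the day 3 arrays and 11.60 to 11.89 on the day 4 arrays. Pecam1, which encodes the CD31 used for the collection, stood at 12.35, 11.73 and 12.01 on day 3 and 11.66, 11.67 and 10.99 on day 4. Its day 4 values all lay below its day 3 values (difference -0.59 ± 0.24, adjusted p = 0.496). Ptprc, which encodes the CD45 used for the depletion, stood at 7.80, 8.91 and 8.35 on day 3 and 8.11, 9.08 and 9.50 on day 4, against 5.43, 5.44 and 5.41 in normal DA hearts. Ptprc was thus detectable above normal hearts in every graft preparation of both days, and its 2 groups overlapped.

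The day 4 arrays differed among themselves, and replicate 1 lay nearest to day 3. The root mean square distance over all genes to the mean of the day 3 arrays was 0.229 log2 for replicate 1, 0.390 for replicate 2 and 0.544 for replicate 3. To the mean of the other day 4 arrays it was 0.469, 0.334 and 0.487, so replicate 3 lay no nearer to the others of its group than replicate 1 did. The day 3 arrays lay 0.284 to 0.389 from the mean of their own group's other arrays. Of all genes, 61% lay within the range of the 3 day 3 arrays on day 4 replicate 1, 45.8% on replicate 2 and 35.9% on replicate 3. Above that range lay 18.9%, 30.2% and 33.1% of all genes, and below it 20.1%, 24% and 31%. Replicates of day 4 correlated with r = 0.965 to 0.982 across genes, and those of day 3 with r = 0.982 to 0.991. Genes are not independent replicates, and of the 8 groups of endothelial arrays day 4 allografts had the lowest such correlation. Results below use all 3 day 4 arrays. Values of a fit without replicate 1, which rests on 2 day 4 arrays, stand beside them as a description only. That fit leaves out the array most like day 3, which enlarges the difference under test, so its adjusted p and calls are not a test of day 4 against day 3.

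No gene passed an adjusted p of 0.05 between day 4 and day 3 in the limma fit (0 of 14217, 0% called). The smallest adjusted p was 0.162. At an unadjusted p under 0.05, 864 genes (6.08%) were higher and 436 (3.07%) were lower on day 4, together 9.14% of those tested. The groups did not overlap in 596 higher genes (4.19%) and 601 lower ones (4.23%). At least 2-fold differences were found for 133 higher genes (0.935%) and 31 lower ones (0.218%), of which 57 (0.401%) and 4 (0.0281%) did not overlap. With every array centred on its own median, which moved the median of all genes by 0.0725 log2, 592 genes were higher and 767 lower at an unadjusted p under 0.05. The share of higher genes was then 43.6% in place of 66.5%. Without day 4 replicate 1, 526 genes (3.7%) were called higher and 213 (1.5%) were called lower at an adjusted p under 0.05, together 5.2%. At an unadjusted p under 0.05 that fit had 13.4% of genes higher and 6.57% lower, together 19.9%. Leaving out any other of the 6 arrays gave 0 calls, with 388 to 924 genes higher at an unadjusted p under 0.05. The lowest of these counts came without day 4 replicate 3, where 388 (2.73%) were higher and 109 (0.767%) lower. Counts of list members in these fits are to be read against the shares of all genes. At an unadjusted p under 0.05 these were 13.4% higher without day 4 replicate 1 and 2.73% to 6.5% higher without any other array. For members called without day 4 replicate 1 they were 3.7% higher and 1.5% lower. List counts with all arrays at an unadjusted p under 0.05 are to be read against 6.08% higher and 3.07% lower.

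**Figure D1:**
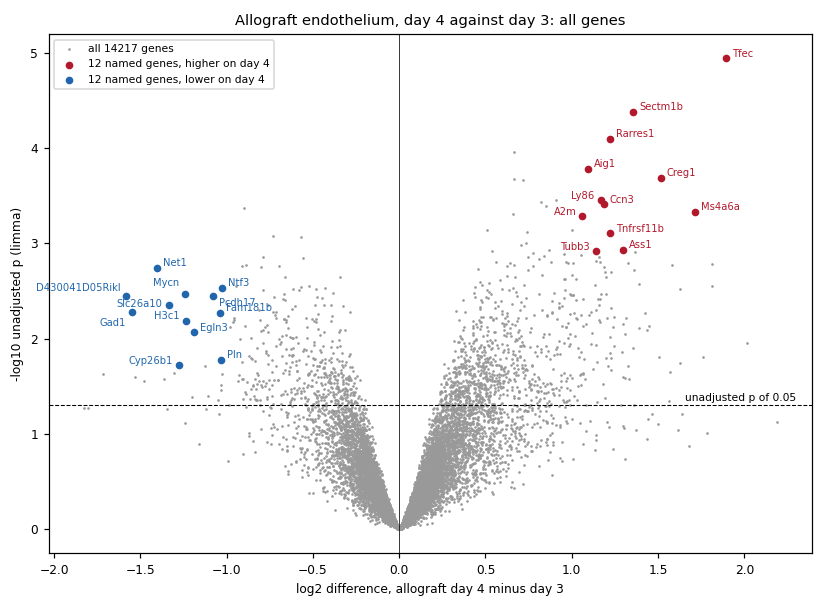
Difference of each of 14217 genes between allograft day 4 and day 3 (horizontal axis, log2) against the −log10 of its unadjusted limma p (vertical axis). The 12 named higher genes (red) and 12 named lower genes (blue) have differences of at least 1 log2, and Tfec has the smallest p of all genes.

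Since no gene passed the adjusted threshold, the genes named first are those of smallest unadjusted p with a difference of at least 1 log2, 12 in each direction, given as values. Of the 12 higher genes, 6 had a signal in graft leukocytes that exceeded the allograft endothelial signal by 2-fold or more without overlap. Tfec, a transcription factor of the Mitf family found chiefly in macrophages and related cells, stood at 4.65, 5.40 and 4.81 on day 3 and 6.44, 6.52 and 7.59 on day 4. All 3 day 4 values lay above all day 3 values, and normal DA hearts lay lower still at 3.87, 3.68 and 3.96. The difference was 1.90 ± 0.33, a fold of 3.72 (95% interval of the log2 difference 1.21 to 2.58, adjusted p = 0.162). Creg1, which encodes a lysosomal glycoprotein, stood at 7.72, 8.02 and 7.64 on day 3 and 9.11, 9.25 and 9.57 on day 4. The 3 day 4 arrays were close together and stood clear of the day 3 arrays, by 1.51 ± 0.33 (adjusted p = 0.383). Ms4a6a, a membrane protein gene of the Ms4a family, stood at 5.88, 6.44 and 6.25 on day 3 and 7.43, 7.46 and 8.81 on day 4. The groups did not overlap, with replicate 3 the highest (difference 1.71 ± 0.41, adjusted p = 0.419).

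Ly86 encodes MD-1, the partner of the receptor Cd180 on B cells and myeloid cells, and stood at 6.55, 6.76 and 6.75 on day 3 and 7.07, 7.82 and 8.68 on day 4. Its 3 day 3 values were nearly equal, while the day 4 values were spread widely above them (difference 1.17 ± 0.27, adjusted p = 0.419). Rarres1, first described as a gene induced by retinoids, stood at 8.01, 8.22 and 8.24 on day 3 and 8.95, 9.24 and 9.94 on day 4, again without overlap (difference 1.22 ± 0.25, adjusted p = 0.382). The sixth of them, Ass1, encodes argininosuccinate synthase, which provides arginine for nitric oxide synthesis. Ass1 stood at 6.60, 6.07 and 7.42 on day 3 and 7.30, 8.04 and 8.63 on day 4, and its groups overlapped because day 3 replicate 3 lay above day 4 replicate 1 (difference 1.29 ± 0.34, adjusted p = 0.419). Over all genes, 8.86% were that much higher in leukocytes, against 27.4% (237 of 864) of the genes higher at an unadjusted p under 0.05 and 1.83% (8 of 436) of those lower. Of the genes called without day 4 replicate 1, the shares were 20.7% (higher) and 2.35% (lower). At least 2-fold lower in leukocytes were 8.98% of all genes, 9.61% of the higher and 19.7% of the lower genes, and 9.7% and 21.1% of those called without replicate 1. Levels of the leukocyte arrays were compared after removal of a median shift of 0.33 log2. In these mixed preparations, fewer cells of a type and less RNA per cell cannot be told apart.

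The other 6 higher genes were not higher in leukocytes by that measure. Sectm1b, whose human relative SECTM1 encodes a ligand of the T cell protein CD7, stood at 8.0, 8.33 and 8.79 on day 3 and 8.99, 9.64 and 10.56 on day 4. In isografts it stood at 6.67, 6.74 and 6.74 on day 3 and 6.62, 6.63 and 6.33 on day 4. The allograft groups did not overlap, and every day 4 array lay above normal DA hearts at 6.36, 6.42 and 6.43 (difference 1.35 ± 0.26, fold 2.56, adjusted p = 0.296). Aig1, which encodes a hydrolase of branched fatty acid esters, stood at 8.0, 7.69 and 7.79 on day 3 and 8.22, 8.91 and 9.63 on day 4, with day 4 replicate 1 nearest to day 3 (difference 1.10 ± 0.24, adjusted p = 0.383).

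For the remaining 4, day 4 replicate 1 lay at or near the day 3 level while replicates 2 and 3 lay well above it. A2m, the protease inhibitor alpha-2-macroglobulin, stood at 5.24, 5.23 and 5.16 on day 3 and 5.39, 6.67 and 6.75 on day 4. Tnfrsf11b, which encodes osteoprotegerin, a decoy receptor for the cytokine Rankl, stood at 5.69, 5.04 and 4.92 on day 3 and 5.39, 6.87 and 7.06 on day 4. Ccn3, a matricellular protein gene, stood at 6.89, 6.09 and 6.06 on day 3 and 6.59, 8.13 and 7.87 on day 4. In each of these 3 genes replicates 2 and 3 were both high, and the differences over all arrays were 1.06 ± 0.26, 1.22 ± 0.31 and 1.19 ± 0.28 (adjusted p = 0.419 for each). Tubb3, a beta tubulin best known from neurons, stood at 6.24, 6.12 and 6.17 on day 3 and 6.21, 7.39 and 8.35 on day 4, where replicate 3 was the highest and replicate 1 lay within the day 3 range (difference 1.14 ± 0.30, adjusted p = 0.419). Without replicate 1, all 12 higher genes were called, with adjusted p of 0.000592 (A2m, Ccn3 and Tubb3) to 0.0214 (Creg1). The 12 were picked by their p on these same arrays, so these calls are a description and no further support.

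**Figure D2:**
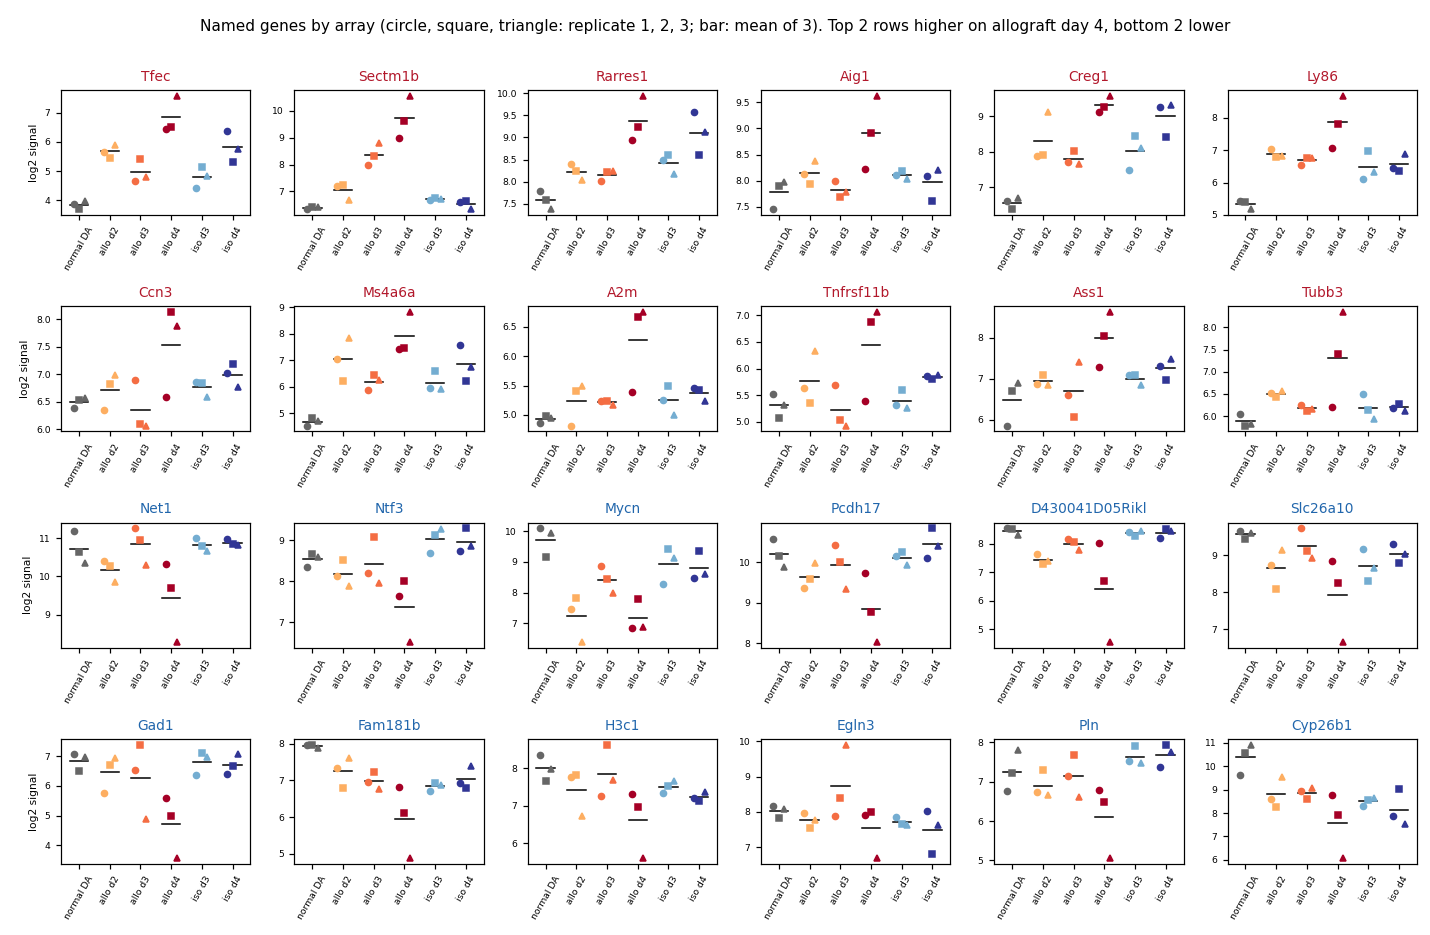
Log2 signal of the 24 named genes (vertical axes) on each array of normal DA hearts, allografts of days 2 to 4 and isografts of days 3 and 4; circles, squares and triangles are replicates 1, 2 and 3, and bars are means of 3 arrays. In Tfec, Creg1 and Ms4a6a all 3 day 4 arrays stand above day 3, whereas in A2m, Tubb3 and D430041D05Rikl day 4 replicate 1 stands close to the day 3 arrays.

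Interferon-gamma-induced genes were higher on day 4 in replicates 2 and 3 but not in replicate 1. The mean level of the 23 measured members (of 28 listed) was 10.26, 10.64 and 10.78 on day 3 and 10.52, 11.40 and 12.10 on day 4, against 8.98 to 9.26 in normal DA hearts. Replicate 1 lay within the day 3 range and the others above it. The members' median difference was 0.83, against 0.01 over all genes, and 10 of 23 were higher and 0 lower at an unadjusted p under 0.05, against a background of 6.08% and 3.07%. On day 4 replicate 1, 4 of the 23 genes lay above the day 3 range, against 18 on replicate 2 and 20 on replicate 3. The shares of all genes above it were 18.9%, 30.2% and 33.1%, so replicate 1 lay near its background. The count of 10 became 16 without day 4 replicate 1, of which 9 were called at an adjusted p under 0.05, and 4 without day 4 replicate 3. In the fit without day 4 replicate 1, 3.7% of all genes were called higher.

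Batf2, a leucine-zipper factor induced by interferon-gamma in macrophages, stood at 7.48, 7.80 and 7.0 on day 3 and 7.28, 9.40 and 11.03 on day 4. Day 4 replicate 1 lay inside the day 3 range, and replicates 2 and 3 lay far above it (difference 1.81 ± 0.53, adjusted p = 0.419). Without replicate 1 the difference was 2.79 ± 0.35 (adjusted p = 0.000592), given as a description only since the array inside the day 3 range was left out. Ido1, the enzyme that breaks down tryptophan, spread widely on both days and stood at 8.37, 9.57 and 10.52 on day 3 and 9.08, 10.62 and 13.45 on day 4. Replicate 1 again lay among the day 3 arrays (difference 1.56 ± 0.73, adjusted p = 0.53). Irf8, a factor needed for the monocyte and dendritic cell lineages and induced by interferon-gamma, stood at 8.99, 9.30 and 10.22 on day 3 and 9.74, 10.81 and 11.67 on day 4, with replicates 2 and 3 above every day 3 array (difference 1.24 ± 0.45, adjusted p = 0.471). Sectm1b, given above, was the member of this list with the smallest p.

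Promoters of the highest of these genes are shown because interferon signals reach DNA through short elements there. The set is Batf2, Ido1, Sectm1b and Irf8, which had the largest differences among interferon-gamma-induced and MHC class II genes, and Tfec. The RefSeq table of the GRCr8 build held 4 of the 5. Each stretch runs from 250 bases before to 50 bases after the annotated gene start. Capitals mark matches to GAS, searched as TTCNNNGAA, or to the core of the interferon-stimulated response element (ISRE), searched as GAAA, any 2 bases and GAAA, on both strands. Batf2 lies on chr1:212897096-212897395 (plus strand), Irf8 on chr19:65699034-65699333 (plus strand), Sectm1b on chr10:106832055-106832354 (minus strand) and Tfec on chr4:46146151-46146450 (minus strand).
Batf2: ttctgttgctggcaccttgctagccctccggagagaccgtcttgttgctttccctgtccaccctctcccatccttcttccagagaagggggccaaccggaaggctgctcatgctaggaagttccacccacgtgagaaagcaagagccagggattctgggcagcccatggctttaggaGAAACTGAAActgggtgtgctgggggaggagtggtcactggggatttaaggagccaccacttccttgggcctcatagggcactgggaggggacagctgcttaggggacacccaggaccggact
Irf8: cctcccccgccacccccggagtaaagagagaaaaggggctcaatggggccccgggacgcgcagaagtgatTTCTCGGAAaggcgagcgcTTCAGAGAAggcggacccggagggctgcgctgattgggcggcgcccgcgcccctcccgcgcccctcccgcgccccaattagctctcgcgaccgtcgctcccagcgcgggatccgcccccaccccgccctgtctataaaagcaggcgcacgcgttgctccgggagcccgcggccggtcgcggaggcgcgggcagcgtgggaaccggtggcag
Sectm1b: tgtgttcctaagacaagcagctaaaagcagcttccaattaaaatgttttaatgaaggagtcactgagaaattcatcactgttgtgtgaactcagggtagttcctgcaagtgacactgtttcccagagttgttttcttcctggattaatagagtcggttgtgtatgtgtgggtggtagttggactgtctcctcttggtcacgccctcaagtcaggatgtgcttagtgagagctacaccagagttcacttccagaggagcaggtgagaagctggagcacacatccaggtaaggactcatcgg
Tfec: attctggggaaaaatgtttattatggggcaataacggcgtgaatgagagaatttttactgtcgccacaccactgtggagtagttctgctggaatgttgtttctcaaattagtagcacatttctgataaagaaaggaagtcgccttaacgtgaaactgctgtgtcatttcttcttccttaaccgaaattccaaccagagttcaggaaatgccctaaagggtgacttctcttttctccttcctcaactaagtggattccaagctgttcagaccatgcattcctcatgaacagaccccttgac

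Batf2 held 1 match to the ISRE core and Irf8 held 2 to GAS, while the Sectm1b and Tfec windows held neither set of letters. Of all 33469 promoters 8.87% held a GAS match and 3.92% an ISRE core. Among the 10945 that belonged to tested genes, 6.98% held a GAS match and 2.99% an ISRE core. Of the 19 interferon-gamma-induced genes with such a promoter, 8 (42.1%) held a GAS match and 10 (52.6%) an ISRE core. A match is a description of letters, and the list was drawn up from genes known for this response.

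Antigen presentation genes were higher on day 4 by most of their means. MHC class II genes, which present peptides to CD4 T cells, had a mean level of 8.73, 9.25 and 9.53 on day 3 and 9.37, 9.95 and 10.57 on day 4 over 8 measured members of 10. On replicate 1, 4 of the 8 lay above the day 3 range, and on replicates 2 and 3 it was 7. The shares of all genes above it were 18.9%, 30.2% and 33.1%. All 8 were higher on day 4 by their mean, with a median of 0.83, and 3 passed an unadjusted p under 0.05. That count was 2 without day 3 replicate 1 and 6 without day 3 replicate 3, and 7 of the 8 were at least 2-fold higher in leukocytes by the measure above. Ciita, the master regulator of class II genes, stood at 6.33, 6.56 and 6.71 on day 3 and 6.82, 7.21 and 9.07 on day 4. The groups did not overlap, and most of the difference of 1.16 ± 0.36 came from replicate 3 (adjusted p = 0.419). RT1-DMb, a class II chain that edits bound peptides, stood at 8.39, 9.19 and 8.97 on day 3 and 9.39, 9.68 and 10.15 on day 4, also without overlap (difference 0.90 ± 0.27, adjusted p = 0.419). RT1-Bb and RT1-Db1, which encode beta chains of the rat class II molecules, differed by 1.00 ± 0.52 and 0.83 ± 0.44, with overlapping groups (adjusted p = 0.578 and 0.58).

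Among 17 MHC class I and antigen processing genes (median 0.16), 4 were higher and 1 lower at an unadjusted p under 0.05, but 1 was higher without day 4 replicate 3. Tap1 encodes a chain of the transporter that carries peptides into the endoplasmic reticulum and stood at 11.28, 11.25 and 11.50 on day 3 and 11.66, 12.25 and 13.07 on day 4. All 3 day 4 arrays lay above day 3 (difference 0.98 ± 0.27, fold 1.97, adjusted p = 0.419). Its partner Tap2 stood at 8.86, 9.13 and 10.61 on day 3 and 9.28, 11.03 and 11.38 on day 4, where day 3 replicate 3 lay above day 4 replicate 1 (difference 1.03 ± 0.48, adjusted p = 0.53). Nlrc5, the regulator of class I genes, stood at 7.74, 7.30 and 8.14 on day 3 and 8.02, 8.77 and 9.28 on day 4, higher by 0.96 ± 0.32 with overlapping groups (adjusted p = 0.426).

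The 6 subunits of the immunoproteasome and its activator shape peptides for class I. On day 4 replicates 2 and 3 all 6 lay above the day 3 range, and on replicate 1 it was 0. The shares of all genes above it were 18.9%, 30.2% and 33.1% on replicates 1, 2 and 3. Psme2, an activator subunit, stood at 11.35, 11.63 and 11.79 on day 3 and 11.35, 12.26 and 12.92 on day 4 (difference 0.59 ± 0.25, adjusted p = 0.505). Psmb8, Psmb10 and Psmb9, the catalytic subunits, differed by 0.40 ± 0.28, 0.37 ± 0.21 and 0.30 ± 0.28, of which none had an unadjusted p under 0.05. Without replicate 1, 4 of the 6 were called higher, against 3.7% of all genes. Among them were Psme2, Psmb8 and Psmb10 with adjusted p of 0.00908, 0.039 and 0.0461, and Psmb9 was not called (adjusted p = 0.122). Replicate 1 held 0 of the 6 above the day 3 range, so these calls are a description only. Of the 24 standard proteasome genes 23 were measured, with a median of 0.18. Of these, 3 were higher at an unadjusted p under 0.05, against 12 without day 4 replicate 1 and 0 without day 4 replicate 3.

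Type I interferon-induced genes, known for antiviral defence, had a median of 0.17 over 28 measured members. Of these, 2 were higher and 0 lower at an unadjusted p under 0.05, a share near the 6.08% of all genes, against 10 higher without day 4 replicate 1 and 1 without day 4 replicate 3. Here the day 4 arrays lay on opposite sides of day 3. On replicate 1, 14 of 28 genes lay below the day 3 range, and on replicate 3, 25 of 28 lay above it. For all genes these shares were 20.1% below on replicate 1 and 33.1% above on replicate 3. The interferon receptors and transducers had a median of 0.10, with 2 of 18 higher and 1 lower.

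**Figure D3:**
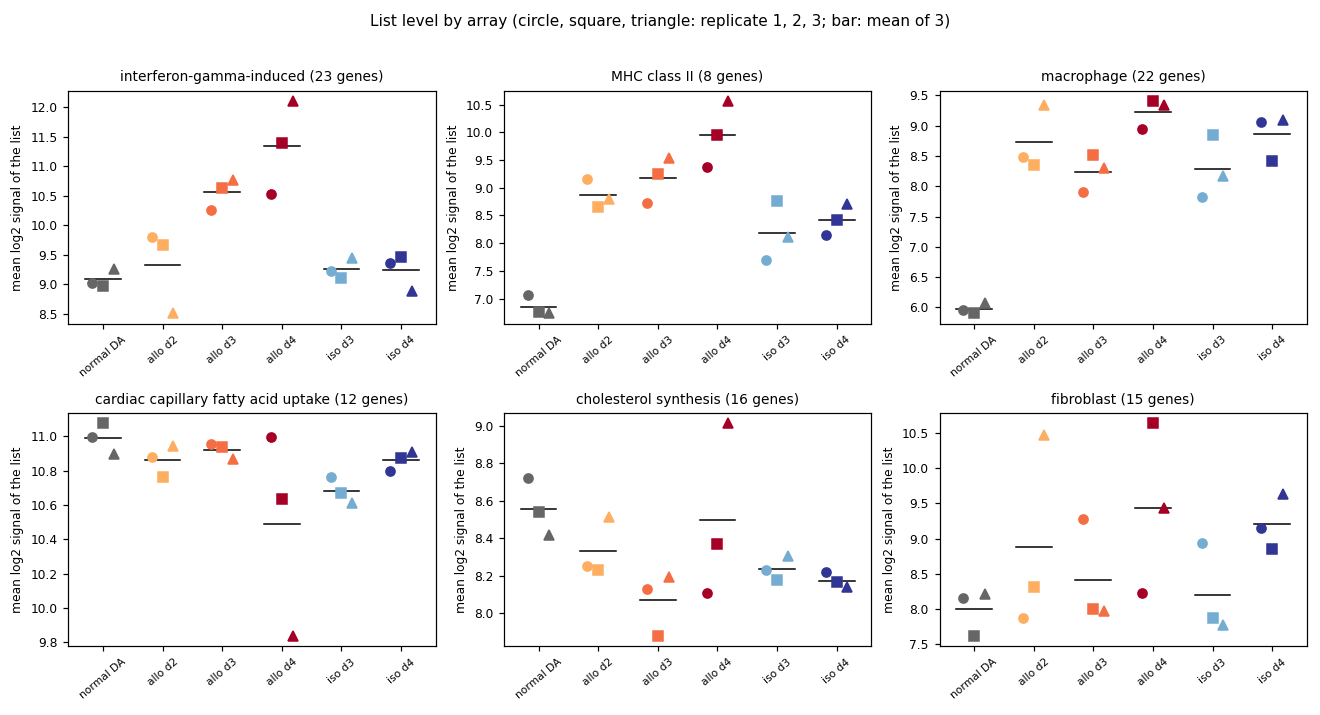
Mean log2 signal of 6 gene lists (vertical axes) on each array; circles, squares and triangles are replicates 1, 2 and 3, and bars are means of 3 arrays. For interferon-gamma-induced genes day 4 replicate 1 (10.52) lies among the day 3 arrays, whereas for macrophage genes all 3 day 4 arrays (8.95 to 9.41) lie above day 3 (7.90 to 8.52).

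Most macrophage markers separated all 3 day 4 arrays from day 3. The 22 measured markers (of 26 listed) had a mean level of 7.90, 8.52 and 8.30 on day 3 and 8.95, 9.41 and 9.35 on day 4. All 3 day 4 arrays, replicate 1 included, lay above all day 3 arrays, with 5.90 to 6.07 in normal DA hearts. All 22 were higher on day 4 by their mean, with a median of 1.07. In 15 the groups did not overlap, against 4.19% of all genes in that direction, and 15 of 22 were higher at an unadjusted p under 0.05. Without day 4 replicate 1 that count was 14, of which 3 were called at an adjusted p under 0.05, against 3.7% of all genes. The lowest count was 8, without day 3 replicate 1. Of the 22, 20 were at least 2-fold higher in leukocytes, where the list's mean level was 12.08 to 12.51.

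Cd163, the scavenger receptor for haemoglobin on tissue macrophages, stood at 5.40, 6.92 and 7.18 on day 3 and 8.14, 7.59 and 8.07 on day 4. Replicate 1 was the highest day 4 array (difference 1.43 ± 0.49, adjusted p = 0.431). Fcgr2b, the inhibitory receptor for immunoglobulin G, stood at 6.5, 7.18 and 7.91 on day 3 and 8.59, 8.31 and 9.20 on day 4, without overlap (difference 1.5 ± 0.57, adjusted p = 0.488). Aif1 and Gpnmb, a calcium-binding protein and a membrane glycoprotein of activated macrophages, differed by 1.31 ± 0.54 and 1.29 ± 0.48 without overlap (adjusted p = 0.501 and 0.479). Clec10a, a lectin of macrophages and dendritic cells, stood at 7.95, 8.94 and 9.09 on day 3 and 10.14, 9.85 and 9.99 on day 4. The 3 day 4 arrays were close together and above day 3 by 1.33 ± 0.36 (adjusted p = 0.419).

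Complement genes, some made chiefly by macrophages and others also by vessel wall cells, were mostly higher on day 4. Over 15 measured members of 20 the median was 0.85. At an unadjusted p under 0.05, 7 were higher and 0 lower, against 6.08% and 3.07% of all genes. C1qa and C1qc, chains of the C1q recognition molecule, stood at 8.40, 8.86 and 8.93 on day 3 and 9.71, 10.14 and 9.91 on day 4, and at 7.67, 8.28 and 8.47 on day 3 and 9.07, 9.52 and 9.29 on day 4. Neither overlapped, and the 3 day 4 arrays were close together (differences 1.19 ± 0.33 and 1.15 ± 0.35, adjusted p = 0.419 in both). Cfd, complement factor D, stood at 6.8, 7.82 and 7.37 on day 3 and 8.71, 9.58 and 8.45 on day 4, also without overlap (difference 1.58 ± 0.44, adjusted p = 0.419). Serping1, the inhibitor of C1 and an interferon-gamma-induced gene, stood at 10.55, 10.43 and 11.06 on day 3 and 10.65, 11.75 and 12.68 on day 4. Unlike the C1q chains, Serping1 on day 4 replicate 1 lay within the day 3 range (difference 1.01 ± 0.32, adjusted p = 0.419).

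Receptors of innate immunity included several without overlap, 4 of 14 in the Toll-like receptor list, against 4.19% of all genes in that direction. Of these 14 receptors and adaptors, 5 were higher and 0 lower at an unadjusted p under 0.05 (median 0.33). The shares of all genes were 6.08% and 3.07%. The higher count was 1 without day 3 replicate 1. Cd14, the coreceptor for lipopolysaccharide, stood at 9.01, 9.70 and 9.72 on day 3 and 10.35, 10.49 and 9.97 on day 4, and Tlr2, a receptor for bacterial lipoproteins, at 7.16, 7.53 and 6.92 on day 3 and 7.85, 7.98 and 7.65 on day 4. Neither overlapped, and replicate 1 was not the lowest of day 4 in either gene (differences 0.80 ± 0.34 and 0.63 ± 0.25, adjusted p = 0.501 and 0.496). Nod1, a cytosolic sensor whose signal was lower in leukocytes, stood at 10.70, 10.62 and 10.83 on day 3 and 11.06, 11.01 and 11.75 on day 4 (difference 0.56 ± 0.18, adjusted p = 0.419).

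Markers of leukocytes in general and of T cells were higher mainly on day 4 replicates 2 and 3. The mean level of 17 pan-leukocyte markers was 8.16, 8.70 and 8.28 on day 3 and 8.44, 8.91 and 9.0 on day 4, so the groups overlapped. Of the 17, 4 were higher at an unadjusted p under 0.05 (median 0.48), against 6.08% of all genes. That count was 0 without day 4 replicate 3. For 19 T cell markers the levels were 6.26, 7.15 and 6.92, and 6.62, 7.31 and 7.43, with a median of 0.38. Of these, 3 were higher and 1 lower, against 6.08% and 3.07% of all genes. The higher count was 11 without day 4 replicate 1 and 0 without day 4 replicate 2. Cd8a, the coreceptor of cytotoxic T cells, stood at 6.10, 7.38 and 6.97 on day 3 and 6.90, 7.81 and 8.19 on day 4 (difference 0.81 ± 0.35, adjusted p = 0.506). Tcf7, a factor of naive T cells that was also bright in normal DA hearts at 9.10, 9.33 and 9.94, stood at 9.04, 9.52 and 9.50 on day 3 and 8.70, 8.89 and 8.05 on day 4. All its day 4 arrays lay below day 3 (difference -0.81 ± 0.27, adjusted p = 0.419).

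Cytotoxic lymphocyte genes showed no common direction, with a median of −0.02 and 1 of 17 higher and 1 lower at an unadjusted p under 0.05. Gzmb, the granule protease granzyme B, stood at 5.92, 7.76 and 7.0 on day 3 and 5.84, 7.21 and 9.38 on day 4, from below every day 3 array to above all of them (difference 0.58 ± 0.57, adjusted p = 0.821). Klrb1a, a receptor of natural killer cells, stood at 4.51, 5.09 and 4.98 on day 3 and 4.16, 4.65 and 4.33 on day 4 (difference -0.48 ± 0.14, adjusted p = 0.419). Of 10 neutrophil and 8 B cell markers, 0 and 1 were higher and none was lower. The part of any of these cells in the differences of other genes was not tested. In a fit with the mean level of the pan-leukocyte markers as a covariate, 8 of 23 interferon-gamma-induced genes and 6 of 22 macrophage markers were higher at an unadjusted p under 0.05, against 1.79% of all genes. With the macrophage markers' mean as the covariate, an alternative chosen after the data were seen, 8 interferon-gamma-induced genes were higher and 0 complement genes, against 1.29% of all genes. The macrophage and complement lists share C1q chains, among them C1qa and C1qc. The complement count was thus adjusted in part for its own members, and the 2 counts cannot be set against each other.

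Genes lower on day 4 had their lowest signal on replicate 3 in most cases. The 12 lower genes named by the rule had differences of −1.03 to −1.58, and in 2 of them, Mycn and Slc26a10, the groups did not overlap. Mycn, a transcription factor of the Myc family, stood at 8.85, 8.43 and 7.97 on day 3 and 6.86, 7.81 and 6.86 on day 4. It had stood at 10.10, 9.15 and 9.93 in normal DA hearts and 7.48, 7.83 and 6.39 on day 2, so its day 3 arrays lay above day 2 and below normal hearts (difference -1.24 ± 0.37, adjusted p = 0.419). Slc26a10, of an anion exchanger family, stood at 9.72, 9.11 and 8.93 on day 3 and 8.85, 8.24 and 6.66 on day 4 (difference -1.34 ± 0.42, adjusted p = 0.419). Net1, an exchange factor that activates RhoA, stood at 11.26, 10.96 and 10.29 on day 3 and 10.34, 9.69 and 8.28 on day 4. Day 4 replicate 3 was the lowest array and replicate 1 lay at the edge of day 3 (difference -1.40 ± 0.39, adjusted p = 0.419).

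Pcdh17, a protocadherin, stood at 10.44, 10.01 and 9.33 on day 3 and 9.73, 8.78 and 8.03 on day 4 and Ntf3, the neurotrophin 3 gene, at 8.21, 9.08 and 7.95 on day 3 and 7.63, 8.0 and 6.52 on day 4. Both were lowest on day 4 replicate 3 and had 1 day 4 array inside the day 3 range (differences -1.08 ± 0.33 and -1.03 ± 0.30, adjusted p = 0.419 for each). Cyp26b1, the enzyme that breaks down retinoic acid, stood at 8.95, 8.58 and 9.06 on day 3 and 8.78, 7.93 and 6.06 on day 4, after 9.65, 10.58 and 10.93 in normal DA hearts (difference -1.27 ± 0.50, adjusted p = 0.496). D430041D05Rikl, a gene without an assigned name, had the largest difference of the 12 and stood at 8.15, 8.07 and 7.78 on day 3 and 8.04, 6.68 and 4.55 on day 4, with replicate 1 inside the day 3 range (difference -1.58 ± 0.48, adjusted p = 0.419). Gad1, Fam181b and H3c1 were also lowest on replicate 3, with differences of -1.55 ± 0.50, -1.04 ± 0.33 and -1.24 ± 0.41. Gad1 makes the transmitter GABA and H3c1 is a histone gene.

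Egln3, an oxygen-sensing prolyl hydroxylase, stood at 7.87, 8.39 and 9.91 on day 3 and 7.92, 8.01 and 6.68 on day 4, and day 3 replicate 3 was its highest array (difference -1.19 ± 0.41, adjusted p = 0.44). Pln, the cardiomyocyte gene for phospholamban, stood at 7.13, 7.67 and 6.62 on day 3 and 6.78, 6.48 and 5.05 on day 4 (difference -1.03 ± 0.40, adjusted p = 0.488). Without day 4 replicate 1, 8 of these 12 lower genes were called, and Ntf3, Mycn, Egln3 and Pln were not. Their adjusted p in that fit was 0.0548, 0.144, 0.0832 and 0.061. The 12 lower genes were likewise picked on the same arrays, so the count of calls is a description only.

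Genes for fatty acid uptake by heart capillaries were lower on day 4 in replicates 2 and 3. The mean level of 12 measured members (of 13) was 10.96, 10.94 and 10.87 on day 3 and 11, 10.63 and 9.84 on day 4. All 12 had a mean below day 3 (median −0.34), and 4 were lower at an unadjusted p under 0.05, against a background of 3.07%. On replicate 3, 10 of 12 lay below the day 3 range, against 7 on replicate 2 and 2 on replicate 1. The shares of all genes below it were 31%, 24% and 20.1% on replicates 3, 2 and 1. The count of 4 was 8 without replicate 1, of which 4 were called at an adjusted p under 0.05, and 0 without replicate 3. In the fit without replicate 1, 1.5% of all genes were called lower.

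Cd36, the fatty acid receptor of capillaries, stood at 13.73, 13.80 and 13.63 on day 3 and 13.84, 13.15 and 10.80 on day 4. It was nearly equal on the day 3 arrays, and the lower day 4 mean rests mostly on replicate 3 (difference -1.12 ± 0.44, adjusted p = 0.496). Fabp4, a fatty acid binding protein, stood at 14.02, 14.02 and 13.87 on day 3 and 14.00, 13.59 and 11.75 on day 4, also lowest on replicate 3 (difference -0.86 ± 0.33, adjusted p = 0.488). Gpihbp1, which anchors lipoprotein lipase on the capillary wall, stood at 11.90, 12.19 and 12.42 on day 3 and 12.12, 11.54 and 10.40 on day 4 (difference -0.82 ± 0.33, adjusted p = 0.496). Aqp7, a glycerol channel, stood at 8.06, 7.98 and 7.30 on day 3 and 7.79, 7.47 and 5.85 on day 4 (difference -0.74 ± 0.43, adjusted p = 0.627). Without replicate 1, Cd36, Fabp4 and Gpihbp1 were called, with adjusted p of 0.0173, 0.018 and 0.0403. These calls are a description only, since the array most like day 3 was left out.

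Capillary and arterial markers (median −0.20) held 5 of 11 genes that were lower and 0 that were higher at an unadjusted p under 0.05, but 0 were lower without day 4 replicate 3. This list shares Cd36, Gpihbp1, Meox2 and Tcf15 with the fatty acid uptake list, so the 2 counts are not independent. Hey1, an effector of Notch in arterial cells, stood at 11.66, 11.66 and 10.60 on day 3 and 11.03, 10.49 and 9.51 on day 4, lowest on replicate 3 (difference -0.96 ± 0.32, adjusted p = 0.421). Rgcc, a capillary marker of the heart, stood at 7.75, 8.38 and 8.56 on day 3 and 8.35, 7.14 and 6.61 on day 4, with replicate 1 inside the day 3 range (difference -0.86 ± 0.38, adjusted p = 0.509). Of 18 endothelial markers 5 were lower and 0 higher (median −0.14), but 0 were lower without day 4 replicate 3. Sox17, an arterial transcription factor, stood at 12.29, 12.36 and 12.33 on day 3 and 12.58, 11.60 and 10.89 on day 4, and Tek, the angiopoietin receptor, at 12.74, 12.74 and 12.30 on day 3 and 12.72, 12.09 and 11.67 on day 4. Replicate 1 lay above day 3 in Sox17 and inside it in Tek, and replicates 2 and 3 lay below day 3 in both (differences -0.64 ± 0.26 and -0.43 ± 0.18, adjusted p = 0.496 for each). Plvap, which forms the diaphragms of leaky vessels, went the other way by its mean, at 0.41 ± 0.26, with overlapping groups.

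Among 21 Notch, apelin and tip-cell genes (median −0.12), 1 was higher and 4 lower at an unadjusted p under 0.05, but 0 were lower without day 4 replicate 3. Apln, the peptide apelin of sprouting tip cells, stood at 10.18, 9.40 and 8.83 on day 3 and 9.57, 10.87 and 11.95 on day 4. Replicates 2 and 3 exceeded every day 3 array and replicate 1 did not (difference 1.33 ± 0.52, adjusted p = 0.496). Its receptor gene Aplnr stood at 12.01, 11.59 and 9.58 on day 3 and 10.33, 10.72 and 8.99 on day 4, lower by its mean with a wide spread on day 3 (difference -1.05 ± 0.49, adjusted p = 0.53). Cxcr4, the chemokine receptor of tip cells and leukocytes, differed by -0.76 ± 0.35 (adjusted p = 0.528). Angpt2, the angiopoietin that destabilises vessels, stood at 10.78, 11.36 and 10.98 on day 3 and 11.26, 11.62 and 12.02 on day 4, higher by 0.59 ± 0.18 with 1 day 4 array inside the day 3 range (adjusted p = 0.419).

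Of the genes called lower without day 4 replicate 1, the 4 with the largest negative differences are named here after their values were seen. Fmo2, a flavin monooxygenase, stood at 10.39, 11.26 and 12.36 on day 3 and 11.92, 10.63 and 5.98 on day 4, and Sult1a1, a sulfotransferase, at 12.24, 12.88 and 13.20 on day 3 and 13.17, 12.49 and 7.24 on day 4. Wif1, a secreted inhibitor of Wnt signals, stood at 8.58, 8.49 and 7.85 on day 3 and 8.86, 7.18 and 3.73 on day 4, and Btnl9, a butyrophilin-like gene of capillaries, at 10.87, 10.89 and 9.47 on day 3 and 10.86, 9.01 and 6.77 on day 4. In these 4 genes the lowest array was day 4 replicate 3, far below every other of the 6. Their differences over all arrays were -1.83, -1.81, -1.72 and -1.53, with adjusted p of 0.55, 0.55, 0.496 and 0.499. Without replicate 1 they were -3.03, -2.91, -2.85 and -2.52, with adjusted p of 0.0367, 0.0476, 0.00901 and 0.0118. The 4 genes were picked among those called in that fit, so these adjusted p are a description only.

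Cholesterol synthesis genes, which supply membrane sterols, were higher on day 4 in replicate 3 and, less so, in replicate 2. The list's mean level over 16 measured genes was 8.13, 7.88 and 8.19 on day 3 and 8.11, 8.37 and 9.01 on day 4. Of the 16, 6 were higher and 0 lower at an unadjusted p under 0.05 (median 0.39), but 0 were higher without replicate 3 and 11 without replicate 1. Sqle, squalene epoxidase, stood at 6.8, 6.11 and 6.73 on day 3 and 6.66, 7.68 and 9.0 on day 4 (difference 1.23 ± 0.39, adjusted p = 0.419). Dhcr7, Fdft1 and Cyp51, other enzymes of the pathway, differed by 0.93 ± 0.29, 0.86 ± 0.28 and 0.82 ± 0.26. Replicate 1 lay inside the day 3 range in Sqle and Dhcr7, and just above it in Cyp51.

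Hypoxia and glycolysis genes held 6 of 27 that were higher and 3 that were lower at an unadjusted p under 0.05. The lower count was 5 without day 4 replicate 1, and without day 3 replicate 3 it was 0. Pfkp, the platelet form of phosphofructokinase, stood at 8.95, 8.84 and 9.22 on day 3 and 9.21, 9.89 and 10.91 on day 4 (difference 1.00 ± 0.29, adjusted p = 0.419). Hk2, a hexokinase, stood at 4.96, 4.90 and 4.65 on day 3 and 5.05, 5.37 and 6.93 on day 4, a low signal except on replicate 3 (difference 0.94 ± 0.30, adjusted p = 0.419). Adm, the hypoxia-induced peptide adrenomedullin, stood at 9.69, 10.70 and 11.24 on day 3 and 10.20, 10.16 and 8.94 on day 4, lower by its mean (difference -0.78 ± 0.34, adjusted p = 0.505). Asns, asparagine synthetase of the amino acid response, stood at 6.41, 5.83 and 6.40 on day 3 and 7.09, 6.84 and 8.65 on day 4, without overlap (difference 1.31 ± 0.43, adjusted p = 0.419).

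NF-kB inflammatory genes had a median of 0.20, with 3 of 23 higher and 0 lower at an unadjusted p under 0.05. The shares of all genes were 6.08% and 3.07%. The higher count was 7 without day 4 replicate 1 and 1 without day 4 replicate 2. Tnfaip2, a gene induced by tumour necrosis factor, stood at 7.37, 6.8 and 7.41 on day 3 and 7.45, 8.66 and 8.95 on day 4, without overlap (difference 1.16 ± 0.32, adjusted p = 0.419). Sod2, the mitochondrial superoxide dismutase, stood at 10.21, 10.68 and 11.08 on day 3 and 10.43, 11.65 and 12.74 on day 4, with replicate 1 inside the day 3 range (difference 0.95 ± 0.45, adjusted p = 0.539). CC chemokines had a median of 0.32, with 2 of 17 higher, against 6 without day 4 replicate 1 and 0 without day 3 replicate 1. Ccl2, the monocyte attractant, stood at 10.50, 11.10 and 11.08 on day 3 and 11, 12.62 and 12.68 on day 4, where replicates 2 and 3 were well above every day 3 array and replicate 1 was among them (difference 1.21 ± 0.48, adjusted p = 0.496).

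Neutrophil and homeostatic chemokines had a median of 0.55, with 3 of 11 higher and 0 lower at an unadjusted p under 0.05, and 1 higher without day 3 replicate 3. Without day 4 replicate 1, 4 of the 11 were called higher, against 3.7% of all genes. Cxcl6, an attractant of neutrophils, stood at 4.88, 4.95 and 4.92 on day 3 and 4.84, 7.17 and 5.82 on day 4. Cxcl13, an attractant of B cells, stood at 6.11, 5.54 and 6.06 on day 3 and 5.25, 8.42 and 7.09 on day 4. In both genes replicate 2 was the highest and replicate 1 lay below every day 3 array (differences 1.03 ± 0.34 and 1.02 ± 0.46, adjusted p = 0.419 and 0.518). Cxcl16, a membrane-bound chemokine, stood at 10.41, 10.39 and 10.10 on day 3 and 10.14, 11.01 and 11.75 on day 4, with replicate 1 inside the day 3 range (difference 0.66 ± 0.26, adjusted p = 0.496).

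Leukocyte adhesion genes had a median of 0.05 that changed sign when the arrays were centred. At an unadjusted p under 0.05, 1 of 17 was higher, near the 6.08% of all genes, and 3 were lower, against 3.07%. These became 5 higher without day 4 replicate 1 and 0 lower without day 4 replicate 3. Alcam, an adhesion molecule that binds CD6 on T cells, stood at 7.21, 7.08 and 6.97 on day 3 and 7.51, 7.70 and 8.19 on day 4 and did not overlap (difference 0.71 ± 0.16, adjusted p = 0.383). Sele, endothelial E-selectin, stood at 11.05, 10.95 and 10.60 on day 3 and 10.70, 11.80 and 12.12 on day 4, where replicate 1 was inside the day 3 range (difference 0.68 ± 0.38, adjusted p = 0.607). Jam3, a junctional adhesion molecule, stood at 10.21, 10.08 and 10.85 on day 3 and 10.71, 9.58 and 8.67 on day 4, from inside the day 3 range on replicate 1 to far below it on replicate 3 (difference -0.73 ± 0.30, adjusted p = 0.501).

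Costimulatory and checkpoint ligands (median 0.32) held 5 of 15 that were higher and 0 lower at an unadjusted p under 0.05, but 0 without day 4 replicate 3. Cd40, the receptor through which T cells activate endothelium, stood at 8.62, 9.01 and 8.25 on day 3 and 8.53, 9.65 and 9.89 on day 4 (difference 0.73 ± 0.24, adjusted p = 0.419). Pvr, a ligand of the receptors Cd226 and Tigit, stood at 9.19, 8.93 and 9.86 on day 3 and 9.18, 10.25 and 11.06 on day 4 (difference 0.84 ± 0.38, adjusted p = 0.523). In both genes replicates 2 and 3 lay above day 3 and replicate 1 lay within it. Without replicate 1 both were called, with adjusted p of 0.00277 and 0.0391. That fit leaves out the array that lay within day 3, so these calls are a description and not a test.

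Coagulation genes (median 0.15) held 4 of 24 that were higher and 0 lower at an unadjusted p under 0.05, and 2 were higher without day 3 replicate 1. With all arrays, 6.08% of all genes were higher and 3.07% lower. F3, tissue factor, stood at 4.67, 4.72 and 5.03 on day 3 and 4.57, 6.41 and 6.41 on day 4, a low signal that was equal on replicates 2 and 3 and lowest on replicate 1 (difference 0.99 ± 0.36, adjusted p = 0.471). F5 and F13a1, coagulation factors that monocytes and macrophages carry, were highest on replicate 1, at 8.17, 7.60 and 8.15, and at 8.52, 7.13 and 7.21, against 7.06, 6.31 and 7.47, and 6.40, 7.05 and 6.63 on day 3 (differences 1.03 ± 0.32 and 0.93 ± 0.42). Of 29 cell death genes, 3 were higher and 3 lower, but 11 were higher without day 4 replicate 1 and 1 without day 4 replicate 2. Bid, which links death receptors to mitochondria, stood at 7.79, 8.19 and 8.12 on day 3 and 8.32, 8.60 and 9.82 on day 4, and Bcl2l11, the death activator Bim, at 9.97, 10.57 and 9.57 on day 3 and 9.32, 9.53 and 8.98 on day 4. The groups overlapped in neither gene, and the directions were opposite (differences 0.88 ± 0.24 and -0.76 ± 0.24, adjusted p = 0.419 for each).

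Fibroblast and matrix genes had high median differences together with a wide spread within each day. Col1a1, the main chain of collagen I, stood at 11.19, 8.25 and 7.97 on day 3 and 8.61, 13.31 and 12.06 on day 4, so day 3 replicate 1 far exceeded day 4 replicate 1. Its difference of 2.19 ± 1.17 was the largest of the fibroblast list (95% interval -0.24 to 4.62, adjusted p = 0.586). Fibroblast markers had a median of 1.19 over 15 genes, of which 1 was higher and 1 lower at an unadjusted p under 0.05. Their mean level was 9.28, 8.0 and 7.96 on day 3 and 8.22, 10.64 and 9.44 on day 4, so both days held high and low arrays. Collagens and structural matrix genes had a median of 0.86, with 4 of 30 higher and 0 lower. Tnc, the matrix protein tenascin C of injured tissue, stood at 8.42, 6.19 and 6.54 on day 3 and 7.27, 10.18 and 9.74 on day 4, also with overlap (difference 2.02 ± 0.72, adjusted p = 0.465). In the fit without day 4 replicate 1, 9 fibroblast genes and 15 matrix genes were higher at an unadjusted p under 0.05, against 13.4% of all genes. Leaving out day 3 replicate 2 gave 0 and 2.

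Lymphatic endothelial genes were highest on day 4 replicate 2, with a list mean of 10.21, against 8.64 on replicate 1 and 8.20 on replicate 3. Ccl21, the lymphatic chemokine that guides T cells and dendritic cells, stood at 10.10, 10.04 and 10.27 on day 3 and 9.80, 12.89 and 9.68 on day 4, and Mmrn1, multimerin 1, at 7.96, 8.31 and 8.29 on day 3 and 8.24, 10.62 and 7.70 on day 4. Both were high on replicate 2 alone (differences 0.65 ± 0.69 and 0.67 ± 0.72, adjusted p = 0.841 and 0.845), and none of the 7 lymphatic markers had an unadjusted p under 0.05. All 7 lay above the day 3 range on replicate 2, against 4 on replicate 1 and 2 on replicate 3. The shares of all genes above it were 18.9%, 30.2% and 33.1% on replicates 1, 2 and 3. Erythroid markers had a mean level of 9.12 on day 4 replicate 1, against 7.49 and 7.63 on the other day 4 arrays and 7.73 to 8.58 on day 3. Cardiomyocyte markers had a median of −0.20, with 1 of 23 higher and 5 lower, but 1 was lower without day 3 replicate 2. Among these Myh7, a myosin heavy chain, stood at 5.90, 5.41 and 4.69 on day 3 and 4.41, 4.82 and 4.64 on day 4, and Mb, myoglobin, at 6.67, 6.75 and 6.16 on day 3 and 6.05, 6.01 and 5.40 on day 4, both low signals (differences -0.71 ± 0.23 and -0.70 ± 0.29, adjusted p = 0.419 and 0.501). The part of these other cells in the results for endothelial genes was not tested.

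Several lists had few members past an unadjusted p of 0.05. Of 24 immediate early genes 0 were higher and 0 lower, of 31 mitochondrial respiratory chain genes 1 and 0, of 28 genes of bone morphogenetic protein and TGF-beta signalling 0 and 1, and of 13 endothelial junction genes 0 and 1. Cell cycle genes had a median of 0.35 with 33 of 39 higher by their mean, but 1 was higher and 2 were lower at an unadjusted p under 0.05. Leaving out day 4 replicate 1 gave 9 higher cell cycle genes and 4 higher respiratory chain genes, against 13.4% of all genes, and leaving out day 3 replicate 2 gave 0 higher cell cycle genes. The lower cell cycle count was 0 without day 4 replicate 3, and the single lower junction gene and the single lower TGF-beta list gene were lost without day 3 replicate 1.

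**Figure D4:**
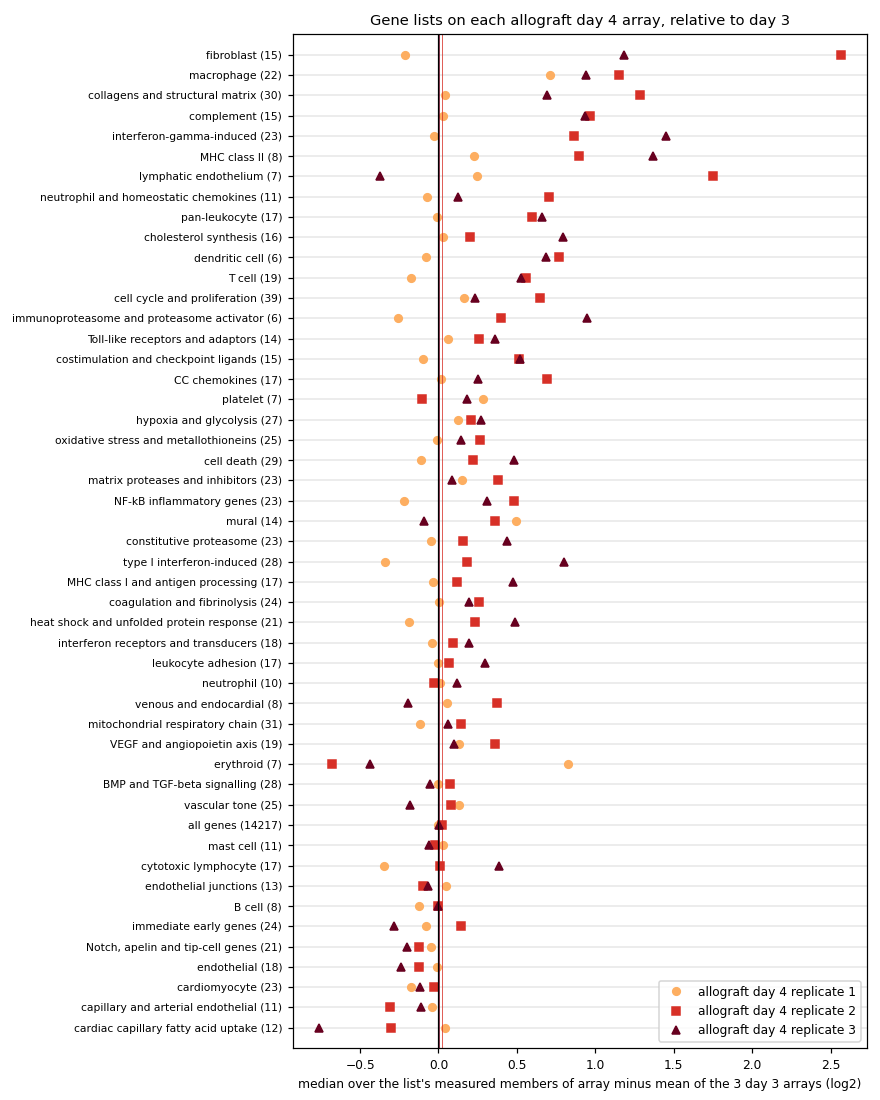
Median over each list's measured members (number in brackets) of the log2 signal on a day 4 allograft array minus the mean of the 3 day 3 arrays, with 1 symbol for each day 4 replicate. Macrophage genes lie at 0.71, 1.15 and 0.94 on replicates 1, 2 and 3, whereas interferon-gamma-induced genes lie at −0.03, 0.87 and 1.45 and fatty acid uptake genes at 0.04, −0.30 and −0.76.

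In isografts, which share no array with the allograft comparison, the same step from day 3 to day 4 also gave 0 calls (0%) at an adjusted p under 0.05. At an unadjusted p under 0.05, 73 genes (0.513%) were higher and 149 (1.05%) lower, together 1.56%. Macrophage markers had a median of 0.66 there, with 7 of 22 higher at an unadjusted p under 0.05. C1qa stood at 8.09, 9.08 and 8.36 on day 3 and 9.74, 9.39 and 9.74 on day 4 in isografts, a difference of 1.11, and Cd163 differed by 0.81. Tfec and Creg1 differed by 1.02 and 0.98 in isografts. Interferon-gamma-induced genes had a median of −0.0017 in isografts, with 0 of 23 higher or lower. Batf2 differed by -0.14, Ido1 by -0.08 and Tap1 by 0.15. For fatty acid uptake genes the isograft median was 0.08, with 2 of 12 higher, among them Gpihbp1 at 0.77.

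The difference between both steps was tested directly as a contrast of the 2 changes. It gave 0 calls (0%) at an adjusted p under 0.05, while 218 genes (1.53%) had a larger allograft step and 201 (1.41%) a smaller one at an unadjusted p under 0.05, together 2.95%. Of interferon-gamma-induced genes, 5 of 23 had a larger step in allografts at an unadjusted p under 0.05 and 0 a smaller one, with a median difference of steps of 0.78. Of cholesterol synthesis genes 5 of 16 had a larger step (median 0.42), and of fatty acid uptake genes 3 of 12 had a smaller one (median −0.43). Of the 22 macrophage markers, 0 differed in either direction (median 0.27). Sectm1b had a difference of steps of 1.54 ± 0.37, Apln of 1.97 ± 0.74, Gpihbp1 of -1.58 ± 0.47 and Angpt2 of 1.08 ± 0.26, and none passed the adjusted threshold (adjusted p = 0.999 in each). In Angpt2 the allograft arrays were higher on day 4 by 0.59 and the isograft arrays lower, at -0.49.

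Without day 4 replicate 1, 6 genes (0.0422%) had a larger step in allografts at an adjusted p under 0.05 and 0 a smaller one. With all arrays none was called. Leaving out the array most like day 3 enlarges the allograft step, so these calls are a description and not a test of the graft types. At an unadjusted p under 0.05 the larger and smaller shares were 5.85% and 3.88%, together 9.72%. The 6 genes were Batf2, Sectm1b, Tubb3, Aig1, Csf2rb and Sytl2, of which the last 2 were named after their values were seen. Csf2rb, the shared beta chain of the receptors for GM-CSF, interleukin 3 and interleukin 5, stood at 7.84, 7.35 and 7.97 on day 3 and 7.92, 8.87 and 9.10 on day 4. Sytl2, a synaptotagmin-like protein of vesicle traffic, stood at 5.01, 5.11 and 4.99 on day 3 and 5.34, 5.88 and 5.89 on day 4, where all 3 day 4 arrays lay above day 3. In that fit the differences of steps were 2.93 ± 0.47 for Batf2, 1.91 ± 0.31 for Sectm1b, 1.69 ± 0.27 for Tubb3, 1.59 ± 0.27 for Aig1, 1.47 ± 0.22 for Csf2rb and 1.13 ± 0.17 for Sytl2. Their adjusted p was 0.0145, but 0.0318 for Aig1.

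**Figure D5:**
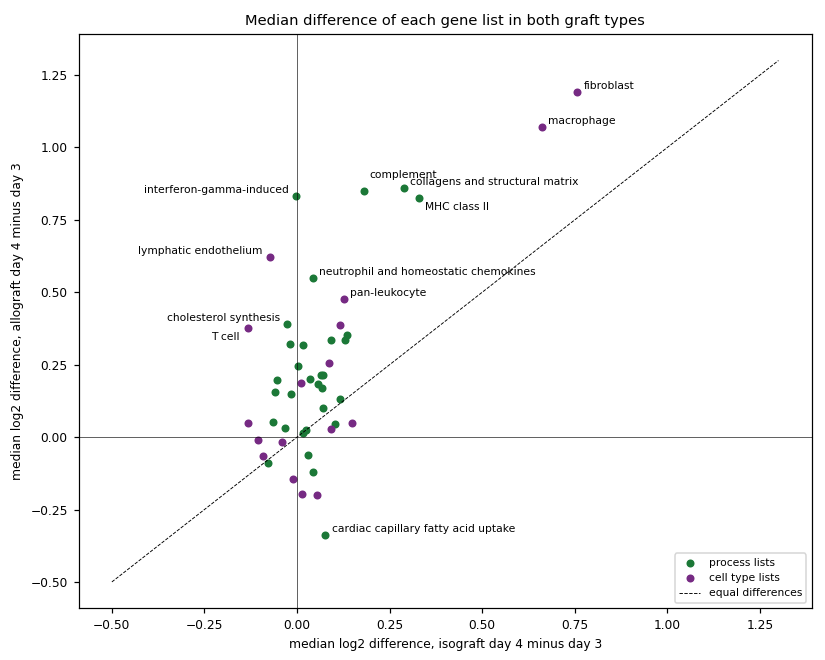
Median log2 difference of each gene list between day 4 and day 3 in isografts (horizontal axis) and allografts (vertical axis); the dashed line marks equal differences. Interferon-gamma-induced genes lie at −0.0017 and 0.83, and macrophage markers at 0.66 and 1.07.

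The step before, from day 2 to day 3 in allografts, shares the day 3 arrays with this comparison, so its values are set beside it only. It gave 0 calls (0%) as well, with 291 genes (2.05%) higher and 385 (2.71%) lower at an unadjusted p under 0.05, together 4.75%. Interferon-gamma-induced genes had a median of 1.28 in that step and 0.83 in the step to day 4. Type I interferon-induced genes had medians of 0.76 and 0.17. For macrophage markers the medians were −0.63 and 1.07, and for fatty acid uptake genes 0.03 and −0.34. Sectm1b went from 7.22, 7.23 and 6.67 on day 2 to 8.0, 8.33 and 8.79 on day 3 and 8.99, 9.64 and 10.56 on day 4, and Tfec from 5.66, 5.44 and 5.91 to 4.65, 5.40 and 4.81 and 6.44, 6.52 and 7.59. Sectm1b was higher at each later day, whereas Tfec was lower by its mean on day 3 than on days 2 and 4.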

How the data were processed

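RNA was measured on 28 Affymetrix arrays with biotin-labelled cRNA from 1-cycle amplification. The authors deposited a log2 signal for each probe set, made with RMA and the affy package per the submitters' processing notes, without versions. RMA equalises the distributions of arrays it treats together, so broad shifts between arrays are reduced. Values were used as deposited, and 0 columns were left over.

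From 31099 probe sets, 20826 that matched a single gene were kept, leaving out 57 controls, 436 with more than 1 gene and 9780 absent from the annotation table. Of those kept, 20758 had a RefSeq symbol, and the brightest probe set of each gene gave 14217 genes (4525 had several). limma 3.58.1 (lmFit and eBayes, R 4.3.3) was fitted to the 24 endothelial arrays in 8 groups of 3, with 16 residual degrees of freedom and a prior of 4.06. A gene was called at an adjusted p under 0.05 (Benjamini-Hochberg, two-sided). The median SE was 0.165, and 0.234 for the difference of steps. Array signals have no counting depth, and the number of arrays limits the precision. Replicate arrays are described as biological, but the animals behind each array are not stated, so p-values measure a spread between arrays. That spread is 1 estimate per gene from all 24 endothelial arrays, not from the 6 arrays compared. The median standard deviation (SD) within groups ranged from 0.134 in normal DA hearts to 0.231 on allograft day 2. It was 0.163 and 0.198 on allograft days 3 and 4. For Batf2 the SDs were 0.40 on day 3 and 1.88 on day 4, beside an SE of 0.53.

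Gene lists covered 31 processes and 17 cell types. Some genes belong to several lists, so counts of different lists are not independent. Examples are Col1a1 and Postn (fibroblast and matrix lists) and Tap1, Psmb9 and Ciita (interferon-gamma-induced and antigen presentation lists). The comparison, lists and alternatives were chosen with earlier results of these data known. Named were the 12 genes of smallest unadjusted p in each direction with a difference of at least 1 log2, since none was called, up to 4 members of each list by size of difference, Pecam1 and Ptprc. The alternatives were 6 or 12 arrays, array weights, each array left out, centring, a filter at 6 log2, other probe set rules, limma's trend and robust settings, leukocyte covariates and the replicate number as a block. The fit was tested on simulated data. Those data gave each gene the same spread in every group, so they cannot show how the fit acts where groups differ in spread.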

Additional observations from a re-analysis of the deposited data

How the results depend on the processing

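Counts of genes called at an adjusted p under 0.05 were 0 in each alternative run except 2. Array weights, whose estimation did not converge, gave 1514 higher, 527 lower and 5 with a larger allograft step. The other was the fit without day 4 replicate 1, the array most like day 3, so leaving out 1 array gave 0 to 526 called higher, 0 to 213 called lower and 0 to 6 with a larger allograft step. At an unadjusted p under 0.05, leaving out 1 array gave 388 to 1899 genes higher and 109 to 934 lower. The numbers were 364 and 173 with the 6 allograft arrays only, 493 and 259 with 12 arrays of the allograft arm, and 2773 and 1530 with array weights. They were 255 and 202 with the pan-leukocyte covariate, 184 and 292 with the macrophage covariate (added after the data were seen), and 592 and 767 with arrays centred on their medians. For fewer arrays the smaller residual degrees of freedom are part of the construction. Those fits also take each gene's spread from fewer groups, and groups differed in their median SD. It was 0.163 and 0.198 on allograft days 3 and 4, and 0.134 to 0.231 over all groups. The part of each, and the cause of the other shifts, was not tested. With the replicate number as a block, 1022 were higher and 548 lower, with 0 called. The sample titles share only a replicate number. Deviations of same-numbered arrays from their group means correlated with r = 0.057, 0.028 and 0.175. The highest r with an array of another number was 0.023, 0.153 and -0.038. Deviations within a group of 3 depend on each other, so these values cannot decide whether arrays were paired.

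Of the named genes, 16 changed sign under at least 1 alternative. With the macrophage covariate the differences were −0.79 for Ptprc, −0.14 for RT1-Bb, −0.17 for RT1-Db1, −0.39 for Aif1, −0.0022 for Gpnmb, −0.17 for Cd14, −0.019 for Tlr2, −0.68 for Cd53, −0.14 for Fermt3, −0.19 for Cd3g, −0.014 for Cd8a, −0.14 for Ccl21 and −0.57 for Mmrn1. With the pan-leukocyte covariate they were −0.34 for Ptprc and −0.17 for Cd53. Without day 4 replicate 3 they were −0.018 for Psmb9, −0.36 for Gzmb and 0.059 for Sult1a1 (against 0.68, 1.40 and −2.91 without day 4 replicate 1), and without day 4 replicate 2 they were −0.40 for Ccl21 and −0.22 for Mmrn1 (against 1.21 and 1.25 without day 4 replicate 3). None of these 16 genes was called with all arrays. Aif1, Gpnmb and Cd14 are members of the macrophage list, and Ptprc and Cd53 of the pan-leukocyte list. A covariate that averages the gene itself takes up part of its difference by construction.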

Other observations

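Leukocytes from allografts, measured on 1 array of day 2, 2 of day 3 and 1 of day 4, had mean levels of interferon-gamma-induced genes of 10.16, 10.40 and 10.73, and 11.77. The level was highest on the day 4 array, as a value of a single array with no replicate. The same list stood at 12.10 on day 4 replicate 3 of the endothelial preparations, above all 4 leukocyte arrays as deposited. The leukocyte arrays had a median shift of 0.33 log2, which is not removed from these values.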
